A study of Mus musculus with 14 samples.

Results

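The 10 genes described here are immediate early transcription factors: the zinc finger proteins Egr1, Egr2 and Egr3, the AP-1 and related leucine zipper proteins Fos, Fosb, Fosl1, Jun, Junb and Atf3, and the bHLH-PAS protein Npas4. They were chosen by name, with their array values in all 4 groups already known from an earlier look at these data, so their differences are given as a description and not as a test. Each of the 10 genes had 1 probe, found through its RefSeq accession. Of the 10, 8 were well above background on every array of at least 1 group and entered the fit with 15826 genes in all. Egr3 and Fosl1 did not pass this filter and are described by their signals and bounds.

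Immediate early genes are transcribed within minutes of a signal, from factors already present in the cell, and their messages are usually short-lived. Growth factors, stress and pathogen products reach them through MAP kinases, which act on serum response factor with its ternary complex partners, and through CREB, which binds cyclic AMP response elements (CREs). FOS and JUN proteins pair to form AP-1, and EGR proteins bind GC-rich sites; in macrophages both families take part in differentiation and inflammatory responses. Npas4 is best known in neurons, where calcium entry induces it.

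The cells were macrophages, differentiated with the growth factor M-CSF from marrow of C57BL/6 females aged 8 weeks. The mice were LysM-Double-Cre x TFEB transgene+ (transgenic) or LysM-Double-Cre x TFEB transgene- (wild-type), so that both genotypes carried Cre under a promoter active in myeloid cells. TFEB is a transcription factor of lysosomal and autophagy genes. After differentiation the cells were replated and kept for 24 h in DMEM alone (control), or in DMEM with medium conditioned by EO771 mammary tumour cells and tumour lysate (tumour material). The tumour material held both additions together, and every array was taken at this single late time, so any early peak of these genes was not sampled.

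RNA was measured on 14 one-colour arrays, which held 11 replicates: 3 of wild-type control, 3 of wild-type with tumour material, 3 of transgenic control and 2 of transgenic with tumour material (replicates 2 and 3; replicate 1 is not analysed here). Replicate 3 of every group other than transgenic control was measured on 2 arrays, which were averaged in the levels given for replicates. The study design names 3 biological replicates a group, without saying whether each came from its own mouse; if not, the errors given here cover only the spread between these samples. Between 35.5% and 40.2% of spots were well above background on each array, and 0 were saturated. The number of arrays limits the precision of every value.

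One library stood apart. Transgenic control replicate 1 correlated with the other transgenic control arrays at 0.957 and 0.959 over the genes tested, whereas replicates 2 and 3 of that group correlated at 0.981 and wild-type arrays of one medium at 0.983 to 0.994. It was the lowest of its group for 7 of the 8 measured factors, all but Junb. It lay, with transgenic control replicate 2 and the repeat array of transgenic tumour replicate 3, in slide column 4, where the scanner's spatial trend was steeper (0.253 to 0.331, against 0.0964 to 0.126 on the other arrays). That repeat array correlated at 0.979 and 0.980 with the other arrays of its group, which correlated with each other at 0.992. Where leaving out transgenic control replicate 1 changed a call or count described here, the value without it stands beside it. This replicate was singled out from these same data, and leaving it out keeps only replicates 2 and 3 in that group. All groups share 1 estimate of a gene's spread, so SEs can also change in comparisons without transgenic control. Calls gained without this replicate are therefore a description.

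The probe for Tfeb, the gene of the transgene, read 0.82 to 0.99 in wild-type control and 0.86 to 1.36 in transgenic control, on a log2 scale defined in the next paragraph. With tumour material it read -0.71 to -0.60 in wild-type and -0.12 to 0.01 in transgenic cells. The labels do not say whether this probe reads the transgene, so the excess is not its size. The transgenic excess was 0.31 (SE 0.13, adjusted p = 0.167) in control medium and 0.69 (SE 0.16, adjusted p = 0.0269) with tumour material, both from limma. The former was 0.46 (adjusted p = 0.034) without transgenic control replicate 3. The latter call was lost without wild-type control replicate 3 or any wild-type tumour replicate. Leaving out transgenic tumour replicate 2 or 3, which leaves 1 in that group, gave an excess of 0.65 or 0.76. Neither of these fits is read as keeping the call. Of 8 macrophage markers, 7 were above background on all 14 arrays and Lyz2 on 4. The 4 epithelial markers Epcam, Krt8, Krt18 and Cdh1, which the tumour cells could carry, and the neuronal markers Rbfox3, Map2 and Tubb3 were above background on 0 arrays, while Syn1 was on 14 and Snap25 on 9. Summed markers of granulocyte precursors and neutrophils differed between the groups, with all 9 measured. The log2 of their summed level was 7.84 to 7.97 in wild-type control and 5.75 to 6.53 in wild-type with tumour material. It was 7.48 to 9.17 in transgenic control and 4.90 to 5.16 in transgenic with tumour material. The 9.17 was transgenic control replicate 1, and replicates 2 and 3 read 7.48 and 7.63. Between genotypes in control medium 4 of the 9 were higher and 0 lower in transgenic cells (adjusted p under 0.05, limma). Every transgenic control replicate exceeded every wild-type control replicate for Mpo, Elane, Ctsg and Prtn3. Lowest transgenic against highest wild-type levels were 3.89 and 2.56, 3.20 and 2.19, 2.20 and 1.01, and -1.22 and -1.94. The ranges of Ngp, Ltf, Camp, S100a8 and S100a9 overlapped. In wild-type cells 7 of the 9 were lower with tumour material (adjusted p under 0.05, limma). Mean levels of the precursor genes Elane (1.99 and 2.02) and Prtn3 (-2.16 and -2.08) were not. In transgenic cells 9 were lower and 0 higher with tumour material. Between genotypes with tumour material 0 were higher and 2 lower in transgenic cells. The marker counts were not recomputed with single replicates left out. Summed macrophage markers were between 10.54 and 11.33, though single markers differed. Of 7 in the fit, 4 were higher and 1 lower with tumour material in wild-type cells, and 3 and 0 in transgenic cells (adjusted p under 0.05, limma). Between genotypes 0 were higher and 2 lower in transgenic cells in each medium. The shares over all genes are given with the counts below. Mean Itgam was 3.73 and 5.87 in wild-type control and tumour material, and 2.39 and 5.06 in transgenic. Summed fibroblast markers, 5 of 6 of them measured and Pdgfra on 0 arrays, were 0.49 to 4.57, 5.02 to 5.45, -0.08 to 3.31 and 2.72 to 3.22 in the same order of groups. The part of these markers in the results below was not tested, and in bulk RNA fewer cells of a type and less RNA per cell cannot be told apart.

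Levels are log2 of a spot's signal divided by the 75th percentile of all spots of its array, so that 0 is a signal at that percentile; they compare samples for 1 probe, not 1 gene with another. A fitted difference is a log2 difference between groups with a term for the slide, and its SE comes from the fit over all genes. All arrays of transgenic tumour lay on slide 2, and most arrays of the other groups on slide 1. The slide term rests on few arrays, so slide and group are only partly separable in comparisons with transgenic tumour. On slide 2, each wild-type group was only the repeat array of replicate 3, whose first array lay on slide 1. Transgenic control there was replicate 3 alone, so slide 2 differences between these groups set 1 array against 1. The plot of levels on every array shows the 10 genes side by side. With tumour material, Npas4 went from a clear signal to below background in both genotypes, Fos and Egr2 were lower and Junb higher in wild-type cells, and Egr1 was lower in transgenic than in wild-type cells in both media.

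**Figure D1:**
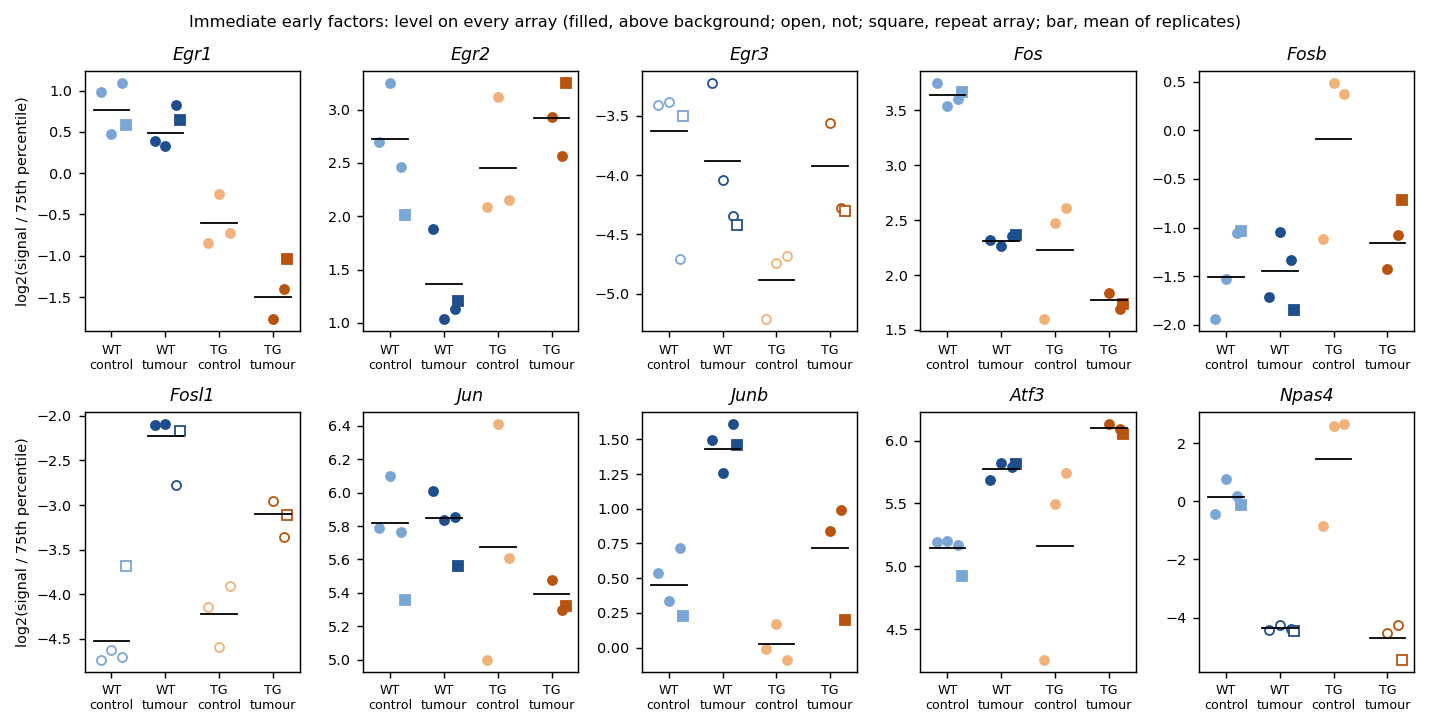
Level of each gene on all 14 arrays, as log2 of the spot signal divided by that array's 75th percentile (vertical axis of each panel, own range), by group (WT, wild-type; TG, transgenic); circles are first arrays, squares repeat arrays, open symbols are not well above background and bars are means of replicates. All Npas4 points with tumour material are open and lie below -4, and the transgenic Egr1 points lie below all wild-type points.

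Egr1 is a serum-inducible activator and a regulator of monocyte differentiation. Its level was 0.99, 0.47 and 0.84 in the 3 wild-type control replicates and 0.39, 0.33 and 0.73 in wild-type cells with tumour material. The ranges of these groups overlapped, and the fitted difference was -0.24 (SE 0.21). In transgenic cells the level was -0.84, -0.25 and -0.73 in control medium and -1.77 and -1.22 with tumour material. Every transgenic replicate was below every wild-type replicate of the same medium, and the transgenic groups did not overlap each other. The fitted transgenic difference was -1.38 (SE 0.22) in control medium and -1.86 (SE 0.27) with tumour material, and within transgenic cells tumour material went with -0.72 (SE 0.27). Single slides gave -1.40 (slide 1) and -1.31 (slide 2) for the transgenic difference in control medium, and -2.13 (slide 2) with tumour material. The latter did not pass the fit's threshold without wild-type tumour replicate 3 (-1.53).

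Egr2 is an activator linked to alternative macrophage activation and, in other cells, to myelination. A 30-base stretch from its promoter is shown because it holds the core of a serum response element, the type of site through which serum response factor acts on immediate early genes. The stretch is from the RefSeq annotation of GRCm38.p6, chr10:67537787-67537816, plus strand, and lies at -82 to -53 from the third of 5 listed starts, the core at -72 to -63; capitals mark the core.
Egr2: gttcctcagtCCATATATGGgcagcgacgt
The core, also called a CArG box, was found in 250-base promoters of 4 of the 5 listed starts of Egr2, and in 1.47% of 32851 RefSeq mouse promoters of that length. Such a match describes the letters and shows no binding. In the arrays, Egr2 read 2.69, 3.25 and 2.24 in wild-type control and 1.88, 1.04 and 1.17 in wild-type cells with tumour material. The lowest control replicate stood above the highest tumour replicate, and the difference was -1.30 (SE 0.28), or 2.46-fold lower. It was -1.46 on slide 1 and -0.81 on slide 2. In transgenic cells Egr2 read 2.08, 3.12 and 2.15 in control medium and 2.94 and 2.91 with tumour material, so the tumour replicates lay inside the control range (difference 0.77, SE 0.37). The transgenic tumour replicates both stood above all 3 wild-type tumour replicates, by 1.94 (SE 0.37; 1.72 within slide 2), while in control medium the genotypes differed by -0.13 (SE 0.31). The difference between the genotypes' responses was 2.07 (SE 0.47). This interaction passed the threshold in 2 of 11 fits that left out a replicate, with values from 1.83 to 2.27. The 2 arrays of transgenic tumour replicate 3 read 2.56 and 3.25, the higher one in slide column 4. With that column as a term the genotype difference with tumour material was 1.63 and did not pass. It also missed the threshold without wild-type tumour replicate 3 (2.10) and without transgenic tumour replicate 3 (1.81). Normexp background correction left the wild-type difference at -0.79, not past the threshold.

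Egr3, a close relative of Egr1 and Egr2, was not well above background on any of the 14 arrays. Its replicate levels ran from -5.21 to -3.22 and no fold is given. Its RNA was therefore not detectable with this probe.

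Fos is the founding FOS protein, which binds DNA only with a partner such as JUN. Its level was 3.75, 3.54 and 3.64 in wild-type control, against 2.32, 2.26 and 2.36 with tumour material. These groups were tight and far apart, with a difference of -1.32 (SE 0.17), and -1.32 on slide 1. On slide 2 the repeat arrays of replicate 3 alone gave -1.30. Transgenic control replicates read 1.60, 2.47 and 2.61, all below the wild-type control replicates. Transgenic tumour replicates read 1.84 and 1.71, the lowest levels of Fos other than transgenic control replicate 1. The transgenic difference was -1.43 (SE 0.19) in control medium and -0.72 (SE 0.22) with tumour material, with no overlap between genotypes in either. Within transgenic cells tumour material went with -0.60 (SE 0.23), and with -0.83 (SE 0.11) when transgenic control replicate 1 was left out; the former did not pass the threshold and the latter did.

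The promoter of Fos is given with those of Junb and Npas4 further on, since these 3 genes, with Egr2, are those past the fit's threshold between the media in wild-type cells. All 3 sequences are the 250 bases before the RefSeq start in GRCm38.p6, read 5′ to 3′ on the gene's strand, and capitals mark the short CRE motif, TGACG or its complement CGTCA; positions count back from the start, with -1 the base before it. The Fos stretch is chr12:85473640-85473889, plus strand, with the motif at -129 to -125 and -66 to -62.
Fos: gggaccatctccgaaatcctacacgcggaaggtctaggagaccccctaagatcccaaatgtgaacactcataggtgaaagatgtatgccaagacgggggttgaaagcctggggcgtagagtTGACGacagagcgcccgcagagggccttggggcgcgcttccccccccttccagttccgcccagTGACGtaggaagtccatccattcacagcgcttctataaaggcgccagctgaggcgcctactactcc

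Fosb, a FOS relative of neurons and bone, had low levels. It read -1.94, -1.53 and -1.05 in wild-type control, and -1.71, -1.04 and -1.59 with tumour material. The wild-type groups overlapped, with a difference of -0.08 (SE 0.36). Transgenic control replicates read -1.12, 0.49 and 0.37, and transgenic tumour replicates -1.42 and -0.90. Replicates 2 and 3 of transgenic control thus stood above every other sample, and replicate 1 lay within the wild-type range. The transgenic difference in control medium was 1.30 (SE 0.38) over all replicates and did not pass the threshold. Without transgenic control replicate 1 it was 1.78 (SE 0.31) and did. Its 250-base promoter held 1 EGR site (GCGNGGGCG), at -50 to -42; 4.70% of the 32851 promoters hold this motif on either strand.

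Fosl1 encodes FRA1, a FOS protein induced later in many responses. It was well above background on 2 of 4 wild-type arrays with tumour material, those of replicates 1 and 2, and on 0 of the other 10 arrays. Its levels there were -2.10, -2.09 and -2.47 in the 3 replicates, against -4.73, -4.63 and -4.19 in wild-type control. Since the control signals were not measurable, the difference is a bound: at least 1.47-fold higher in wild-type cells with tumour material. The mean of the brighter group includes replicate 3, whose 2 arrays were not well above background. A bound sets the mean of the bright group against the dimmest signal well above background on the arrays of the dim group, or the probe's own signal where that is higher. Transgenic tumour replicates read -2.95 and -3.24, at least 1.64-fold below wild-type with tumour material by the same mean.

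Jun, the main JUN protein of AP-1, was bright on every array and showed no clear difference. Its levels were 5.79, 6.10 and 5.56 in wild-type control, and 6.01, 5.83 and 5.71 with tumour material. The difference of 0.06 (SE 0.24) had a 95% interval from -0.46 to 0.58. Transgenic control read 4.998, 6.41 and 5.61, the widest spread of the 4 groups, and transgenic tumour replicates 5.48 and 5.31. The transgenic difference was -0.06 (SE 0.26) in control medium and -0.20 (SE 0.31) with tumour material.

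Junb, a JUN protein that can restrain Jun in growth control and takes part in macrophage activation, read 0.53, 0.34 and 0.47 in wild-type control. With tumour material it read 1.497, 1.25 and 1.54, above all control replicates. The difference was 0.999 (SE 0.18), a 2.00-fold higher level, with 0.93 on slide 1 and 1.23 on slide 2. Transgenic replicates read -0.01, 0.17 and -0.09 in control medium and 0.84 and 0.60 with tumour material, a difference of 0.76 (SE 0.23; 0.81 within slide 2) that passed in 8 of 11 fits without a replicate. Junb therefore differed in the same direction in both genotypes, and the difference of the responses was not past the threshold. The transgenic groups stood below the wild-type ones in each medium with no overlap, by -0.42 (SE 0.19) in control medium and -0.65 (SE 0.23) with tumour material, neither past the threshold. The 2 arrays of transgenic tumour replicate 3 read 0.99 and 0.20 for Junb. The promoter is chr8:84978749-84978998, minus strand, with 1 short CRE motif at -106 to -102.
Junb: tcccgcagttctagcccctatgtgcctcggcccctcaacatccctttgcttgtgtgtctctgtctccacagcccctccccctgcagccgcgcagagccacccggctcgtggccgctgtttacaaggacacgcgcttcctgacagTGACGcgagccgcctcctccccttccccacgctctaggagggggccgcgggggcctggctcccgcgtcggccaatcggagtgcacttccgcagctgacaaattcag

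Atf3 is a stress-induced member of the ATF family that represses several inflammatory genes in macrophages. It read 5.19, 5.20 and 5.05 in wild-type control, and 5.69, 5.83 and 5.80 with tumour material. The groups did not overlap, and the difference was 0.65 (SE 0.25), not past the threshold. Transgenic tumour replicates were the highest, at 6.14 and 6.07, against 4.25, 5.50 and 5.74 in transgenic control. The spread in transgenic control came with replicate 1. Without it the wild-type difference between media was 0.67 (SE 0.09), the transgenic one 0.48 (SE 0.13) and the genotype difference in control medium 0.51 (SE 0.11), and all 3 passed. The wild-type value hardly moved, and its pass came with the smaller SE from the spread shared by all groups. Over all replicates the genotypes differed by 0.02 (SE 0.27) in control medium and 0.18 (SE 0.32) with tumour material.

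Npas4 forms dimers with ARNT proteins and is induced by calcium. It was above background on all 7 control arrays and on 0 of 7 arrays with tumour material. Its level was -0.42, 0.78 and 0.04 in wild-type control and -0.85, 2.60 and 2.68 in transgenic control. With tumour material it read -4.42, -4.24 and -4.43 in wild-type and -4.52 and -4.85 in transgenic cells. The control and tumour groups lay far apart in both genotypes. As a bound from the mean of the control replicates, Npas4 was at least 7.36-fold lower with tumour material in wild-type cells. In transgenic cells it was at least 22.8-fold lower. These bounds hold for means and not for each replicate, and they do not order the genotypes. Without transgenic control replicate 1 the transgenic bound was 51.1-fold. The fitted differences, -4.50 (SE 0.65) and -6.48 (SE 0.85), depend on signals below background on 1 side. Npas4 passed the filter on dim probes only through its control arrays. Transgenic control replicates 2 and 3 stood above the wild-type control replicates and replicate 1 below them, so the genotype difference in control medium was 1.32 (SE 0.70) over all replicates. It was 2.56 (SE 0.33), past the threshold, without replicate 1. With tumour material both genotypes were below background and their levels have no order. The promoter is chr19:4989972-4990221, minus strand, with the short CRE motif on opposite strands at -179 to -175 and -169 to -165.
Npas4: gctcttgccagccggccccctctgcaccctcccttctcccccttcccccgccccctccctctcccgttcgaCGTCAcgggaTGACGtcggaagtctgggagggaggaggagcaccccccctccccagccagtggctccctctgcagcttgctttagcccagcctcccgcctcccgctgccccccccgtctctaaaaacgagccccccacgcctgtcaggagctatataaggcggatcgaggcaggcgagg

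Promoters were matched for 7 of the 10 genes, with 11 starts in all. The short CRE motif on either strand was found for Egr2 (3 of its 5 starts), Fos, Fosb, Junb, Atf3 and Npas4. The windows of those 3 starts overlap and share the same sites. It was in none of the 250 bases of Jun, and 17.8% of all 32851 promoters hold it. The full CRE (TGACGTCA, 1.55% of promoters) and the AP-1 site (TGANTCA, 6.75%) were in 0 of the 11 windows, as letters on either strand; the short motif is part of the full CRE. A missing match says only that these letters are not in the window.

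Counted over the 8 measured genes, tumour material in wild-type cells went with 1 higher (Junb) and 3 lower (Egr2, Fos, Npas4) past an adjusted p of 0.05, where 40.0% of all genes were called, 23.2% higher and 16.8% lower. In 5 of 8 the replicates did not overlap, against 58.1% of all genes. In transgenic cells 1 was higher (Junb) and 1 lower (Npas4), where 15.2% and 10.1% of all genes were called (25.4% in either direction); 4 of 8 did not overlap, against 50.7%. Between genotypes in control medium 0 were higher and 2 lower (Egr1, Fos), with 3.63% and 5.32% of all genes called (8.95% in either direction) and 3 of 8 not overlapping, against 21.4%. With tumour material 1 was higher in transgenic cells (Egr2) and 1 lower (Egr1), with 2.00% and 2.53% of all genes called (4.53% in either direction), and 6 of the 7 above background in either group did not overlap, against 48.2% of genes so measured and 48.0% of all genes; Npas4, below background in both, has no order there. For the difference of the responses 1 was called higher (Egr2), with 1.02% of all genes called higher and 0.916% lower (1.93% in all). Because the genes were chosen with these contrasts known, nothing is read from these counts. The median differences were -0.16, -0.35, -0.09, -0.43 and -0.19 in the same order, against 0.05, 0.06, -0.03, -0.01 and 0.02 over all genes. Comparisons that share a group of samples are not independent of each other.

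**Figure D2:**
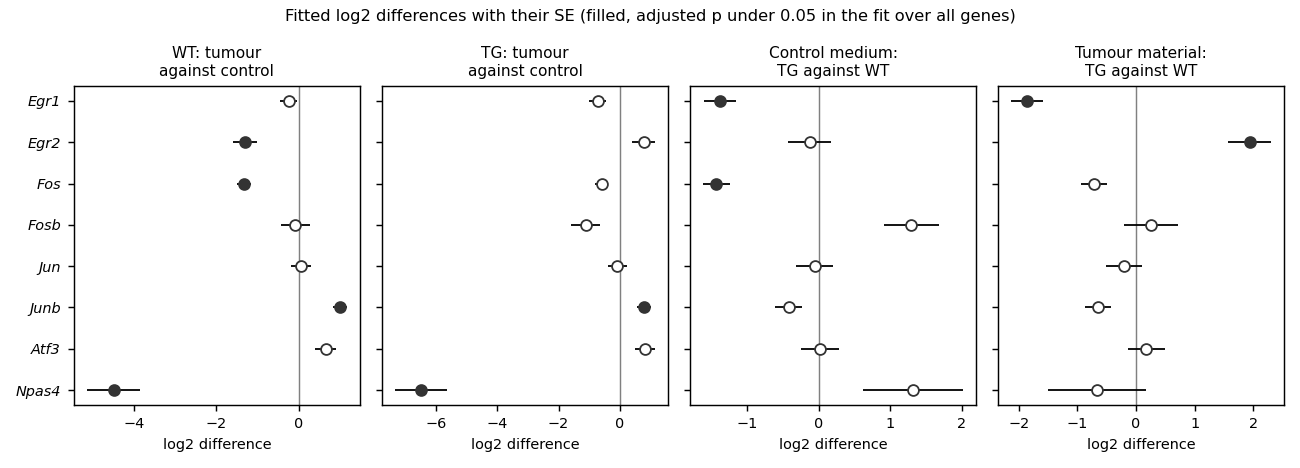
Fitted log2 differences (horizontal axis, bars are SE) of the 8 measured genes in the 4 comparisons; filled points have an adjusted p under 0.05 in the fit over all genes. Npas4 stands far to the left in both comparisons of tumour material with control, and Egr1 lies left of 0 and Egr2 right of 0 between genotypes with tumour material.

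Transgenic control replicate 1 decided several of these counts. Without it, 5 of 8 genes passed between genotypes in control medium, with Fosb, Atf3 and Npas4 higher and Egr1 (-1.25, SE 0.24) and Fos (-1.11, SE 0.10) lower in transgenic cells, and calls among all genes went from 1416 to 2717 (17.2%). In transgenic cells with tumour material against control, 6 of 8 passed, where 33.4% of all genes did (5293): Junb and Atf3 higher, and Egr1, Fos, Fosb and Npas4 lower. Between genotypes with tumour material 4 passed (Egr2 higher; Egr1, Fos and Junb lower), where 13.2% of all genes did (2087). For the difference of the responses 3 did (Egr2, Fos and Npas4), where 7.63% of all genes did (1207), and that of Npas4 rests on tumour signals below background in both genotypes. Leaving out slide column 4 also removes transgenic control replicate 1 and leaves replicate 3 alone in that group, so it is no separate check. Its differences in control medium were 1.98 for Fosb, 0.70 for Atf3 and 2.70 for Npas4.

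**Figure D3:**
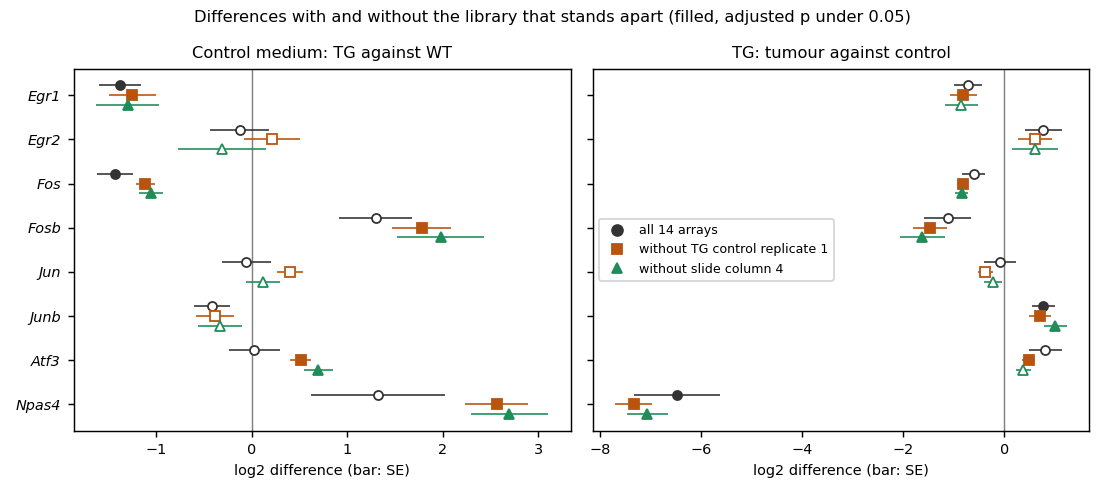
Log2 differences (horizontal axis, bars are SE) of the 8 measured genes between genotypes in control medium (left) and between media in transgenic cells (right), over all 14 arrays, without transgenic control replicate 1 and without slide column 4; filled symbols pass an adjusted p of 0.05. In the left panel Fosb, Atf3 and Npas4 are open over all 14 arrays and filled without transgenic control replicate 1. Without slide column 4, transgenic control is replicate 3 alone, so only the positions of those symbols are read.

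Other leucine zipper factors pair with or resemble the AP-1 proteins. Here and below, adjusted p-values are from limma with Benjamini-Hochberg adjustment over all 15826 genes, and the lists were drawn up with earlier results of these data known. Of 14 measured factors, 8 rose and 0 fell in wild-type cells, and 7 rose and 0 fell in transgenic cells (medians 0.52 and 0.53). The wild-type count was 4 without wild-type tumour replicate 3 and 2 within slide 2. Among all genes 23.2% rose and 16.8% fell in wild-type cells and 15.2% and 10.1% in transgenic cells (medians 0.05 and 0.06), which is the background for this and the following lists. Maff, a small MAF protein, rose by 2.72 (SE 0.25, adjusted p = 6.37e-06) in wild-type and 2.88 (SE 0.33, adjusted p = 7.33e-05) in transgenic cells, where 2 of 3 control arrays were above background. Batf, a JUN partner known from lymphocytes and dendritic cells, rose by 1.35 (SE 0.11, adjusted p = 2.76e-06) and 2.12 (SE 0.15, adjusted p = 1.53e-06). Batf3, needed for cross-presenting dendritic cells, rose by 0.63 (SE 0.17) and 1.71 (SE 0.22). Fosl2, which encodes the FOS protein FRA2, rose by 0.74 (SE 0.18, adjusted p = 0.00682) in wild-type cells, a call lost without wild-type tumour replicate 3 (adjusted p = 0.073), and differed by 0.46 (SE 0.24, adjusted p = 0.191) in transgenic cells; without transgenic control replicate 1 the latter was 0.62 (SE 0.18, adjusted p = 0.022) and passed. Jund, the JUN protein least dependent on stimulation, differed by 0.40 in each (SE 0.18 and 0.23, adjusted p = 0.0933 and 0.239), and without that replicate by 0.39 and 0.56 (adjusted p = 0.0278 and 0.0416), both past the threshold. In control medium Batf was lower in transgenic cells by -0.95 (SE 0.12, adjusted p = 0.000628), as was Maff by -0.99 (SE 0.27, adjusted p = 0.0436); the Maff call was lost in 8 of 11 fits that left out a replicate, so that the count of 2 lower became 1 in each of them other than that without transgenic control replicate 1. With tumour material 0 of 14 passed between genotypes. Without transgenic control replicate 1 these counts were 6 lower in control medium, and 2 higher and 2 lower with tumour material.

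The partners of the EGR and NPAS4 proteins were measured for 3 of 5 genes. The EGR corepressor Nab1 rose by 0.65 (SE 0.10, adjusted p = 0.000325) in wild-type and 0.83 (SE 0.13, adjusted p = 0.000733) in transgenic cells with tumour material. Its relative Nab2, itself an EGR target, fell by 0.48 (SE 0.12, adjusted p = 0.00721) and 0.62 (SE 0.16, adjusted p = 0.0132); the wild-type call was lost without wild-type tumour replicate 3, and the transgenic one without transgenic control or tumour replicate 3. Arnt, a dimer partner of Npas4, differed by 0.01 (SE 0.21) and 0.12 (SE 0.27). Egr4 and Arnt2 did not pass the filter on dim probes. Between genotypes 0 of 3 passed in either medium; without transgenic control replicate 1, Nab1 was lower in control medium by -0.39 (SE 0.11, adjusted p = 0.03).

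Among 34 measured genes of other immediate early families, 16 rose and 6 fell with tumour material in wild-type cells, and 9 rose and 4 fell in transgenic cells (medians 0.57 and -0.01). Ier3, a survival factor, rose by 3.39 (SE 0.32, adjusted p = 6.49e-06) and 4.85 (SE 0.41, adjusted p = 7.38e-06), with 2 of 3 transgenic control arrays above background. Csrnp1, a nuclear protein induced by AXIN, rose by 1.96 (SE 0.10, adjusted p = 4.05e-08) and 2.36 (SE 0.12, adjusted p = 2.03e-07). Ier5l was above background on all 7 control arrays and on 0 of 7 with tumour material, so its fall is a bound. It was at least 8.78-fold in wild-type (adjusted p of the limma fit 3.64e-06) and at least 12.7-fold in transgenic cells (adjusted p = 7.82e-05). Ier5l passed the filter on dim probes only through its control arrays. Its p-values rest on signals below background on 1 side and are not read as support. Dusp5, an ERK phosphatase, was above background on 0 control arrays, on all 4 wild-type arrays with tumour material and on 1 of 3 transgenic ones. It was at least 2.55-fold higher with tumour material in wild-type cells (adjusted p of the limma fit 2.32e-06). Dusp5 passed the filter only through wild-type cells with tumour material, so this p-value is not read as support either. The wild-type counts above include Ier5l and Dusp5. Nr4a1, a nuclear receptor needed for patrolling monocytes, fell by 1.78 (SE 0.25, adjusted p = 0.000178) and 1.72 (SE 0.33, adjusted p = 0.00274), the latter lost without transgenic tumour replicate 3 (adjusted p = 0.088). The zinc finger gene Klf4 rose by 1.04 (SE 0.20, adjusted p = 0.00151) and 2.15 (SE 0.26, adjusted p = 0.000118), while Ier2 differed by -0.10 (SE 0.28) and fell by 1.26 (SE 0.37, adjusted p = 0.027), the latter lost in 3 fits that left out a replicate and with 2 of 3 transgenic tumour arrays above background. Dusp1, a phosphatase of p38 and JNK, rose by 1.14 (SE 0.22, adjusted p = 0.0015) in wild-type cells and differed by 0.57 (SE 0.29, adjusted p = 0.175) in transgenic cells. Myc differed by 0.12 (SE 0.40) and -0.89 (SE 0.53), and in transgenic control it spread from -1.39 to 1.04, with replicate 1 the lowest. Without that replicate Myc fell by 1.42 (SE 0.16, adjusted p = 6.06e-05) in transgenic cells.

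**Figure D4:**
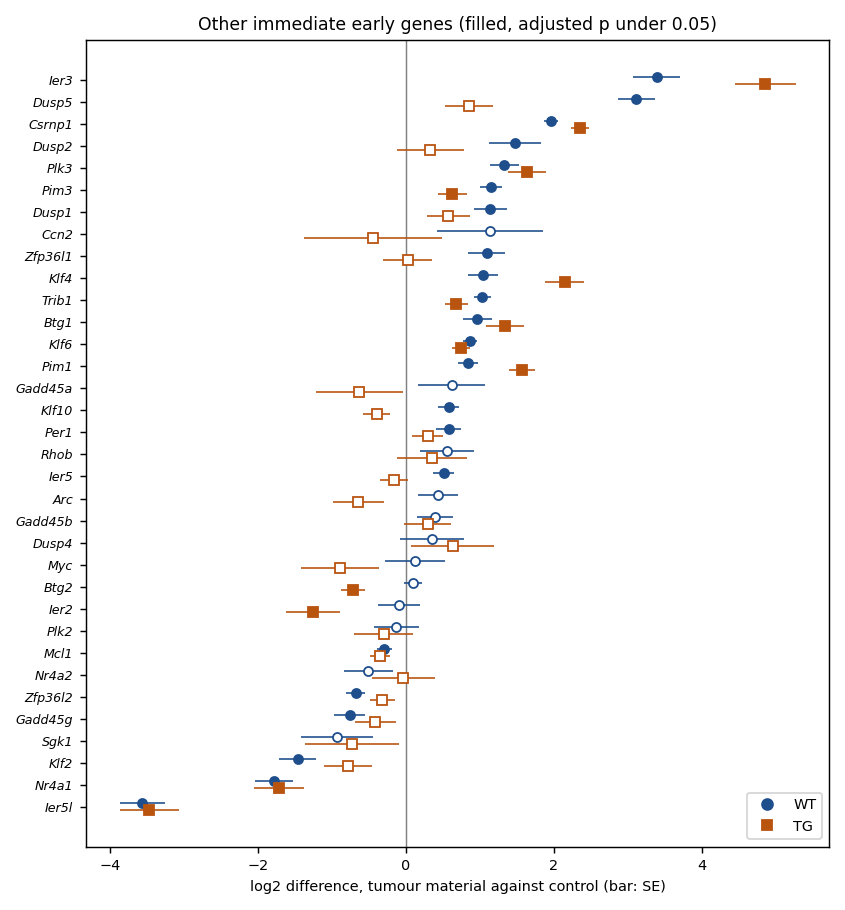
Log2 differences of 34 other immediate early genes between tumour material and control (horizontal axis, bars are SE), ordered by the wild-type value, for wild-type (WT, circles) and transgenic (TG, squares) cells; filled symbols have an adjusted p under 0.05. Ier3, Dusp5 and Csrnp1 stand at the upper end for wild-type cells and Ier5l at the lower end for both genotypes; control signals of Dusp5 and tumour signals of Ier5l were below background.

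Between genotypes in control medium 1 of these 34 genes was higher and 7 were lower in transgenic cells, where 3.63% of all genes were higher and 5.32% lower. The one called higher was Dusp5, whose control signals were below background in both genotypes and have no order. These 8 calls became 1 without wild-type control replicate 3, 3 without transgenic tumour replicate 3, 4 without wild-type control replicate 1 or wild-type tumour replicate 3, 5 without wild-type tumour replicate 1, 2 with slide column 4 as a term, 3 within slide 1 and 0 within slide 2. Klf4 was lower by -1.49 (SE 0.22, adjusted p = 0.00151), Ier3 by -1.90 (SE 0.34, adjusted p = 0.00524) and Nr4a1 by -1.32 (SE 0.27, adjusted p = 0.012); leaving out wild-type control replicate 3 ended the calls of Ier3 and Nr4a1 (adjusted p = 0.071 and 0.085), and leaving out transgenic tumour replicate 3 that of Nr4a1 (0.056). Without transgenic control replicate 1 the counts were 10 higher and 8 lower. With tumour material 0 were higher and 4 lower, where 2.00% and 2.53% of all genes were: Btg2 by -0.999 (SE 0.16, adjusted p = 0.00375), Trib1 by -0.96 (SE 0.16, adjusted p = 0.0043), Dusp2 by -2.20 (SE 0.45, adjusted p = 0.0168) and Klf10 by -0.79 (SE 0.18, adjusted p = 0.0268). All 4 calls were lost without wild-type tumour replicate 3, with adjusted p-values of 0.14 to 0.25, and without transgenic tumour replicate 3, with 0.12 to 0.31. Without transgenic control replicate 1 the counts were 4 higher and 10 lower.

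Of 20 measured genes that carry signals to the immediate early promoters, 9 rose and 2 fell in wild-type cells and 7 rose and 2 fell in transgenic cells with tumour material (medians 0.39 and 0.31). The 11 wild-type calls became 7 without wild-type tumour replicate 3 and 1 within slide 2, and the 9 transgenic calls became 5 without wild-type tumour replicate 3 or either transgenic tumour replicate. Dusp6, the ERK phosphatase that ERK itself induces, rose by 1.97 (SE 0.19, adjusted p = 7.27e-06) and 1.34 (SE 0.24, adjusted p = 0.00176). Spry2, another feedback inhibitor of this pathway, rose by 1.11 (SE 0.23, adjusted p = 0.00221) and 1.04 (SE 0.30, adjusted p = 0.0238), the latter lost in 4 fits that left out a replicate; it was above background on 3 of 4 wild-type and 2 of 3 transgenic control arrays. Srf, the serum response factor, rose by 0.40 (SE 0.11, adjusted p = 0.0102) in wild-type cells, a call lost without wild-type tumour replicate 3 (adjusted p = 0.14), and differed by -0.22 (SE 0.14, adjusted p = 0.28) in transgenic cells. In control medium Srf was higher in transgenic cells by 0.57 (SE 0.11, adjusted p = 0.00997), a call that ended (adjusted p = 0.07) when wild-type control replicate 3 was left out. It was 1 of 3 genes of this list that passed there, all higher, and 0 passed with tumour material; the 3 became 0 without wild-type control replicate 3 and 1 with slide column 4 as a term. Its cofactor gene Mrtfa fell by 0.97 (SE 0.22, adjusted p = 0.00413) and 1.59 (SE 0.29, adjusted p = 0.00175) with tumour material; the wild-type call was lost without wild-type tumour replicate 3.

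Of 9 genes known as AP-1 targets, 5 rose and 1 fell in wild-type cells and 4 rose and 0 fell in transgenic cells with tumour material (medians 2.15 and 1.90). The collagenase Mmp13 rose by 6.12 (SE 0.21, adjusted p = 2.39e-09) and 6.91 (SE 0.28, adjusted p = 2.11e-08), with 1 of 3 transgenic control arrays above background, and the haem oxygenase Hmox1 by 2.57 (SE 0.11, adjusted p = 1.05e-08) and 2.43 (SE 0.14, adjusted p = 3.78e-07). Plaur, the urokinase receptor, rose by 2.15 (SE 0.18, adjusted p = 2.77e-06) and 2.11 (SE 0.23, adjusted p = 5.6e-05). Hmox1 was lower in transgenic cells by -0.85 (SE 0.11, adjusted p = 0.00091) in control medium and -0.99 (SE 0.14, adjusted p = 0.00165) with tumour material, the latter at an adjusted p of 0.051 without wild-type tumour replicate 3. In control medium 1 of these genes was higher and 2 lower in transgenic cells, and with tumour material 1 was higher and 1 lower; the latter 2 became 0 without wild-type tumour replicate 3 or within slide 2, and 1 without transgenic tumour replicate 3. Without transgenic control replicate 1 the counts were 2 higher and 4 lower in control medium, and 3 higher and 4 lower with tumour material. Heat shock genes, which respond to cell handling as these factors also can, were measured for 5 of 6: 3 rose and 0 fell in wild-type and 2 rose and 0 fell in transgenic cells with tumour material, and the transgenic count became 0 without transgenic control replicate 3 and 1 without any of 4 other replicates. Among them was Hspa1a, above background on 0 control arrays, all 4 wild-type arrays with tumour material and 1 of 3 transgenic ones. It was at least 2.47-fold higher in wild-type (adjusted p of the limma fit 0.000456) and at least 1.72-fold higher in transgenic cells (adjusted p = 0.0217). Hspa1a passed the filter only through wild-type cells with tumour material, so neither p-value is read as support. The transgenic Hspa1a call was lost without transgenic control or tumour replicate 3. Their part in the levels of the immediate early factors was not tested.

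The named genes whose levels ran most like each factor were ranked by Pearson's r over the 11 replicates, as a description; the second value is r of the deviations from group means. For Npas4 they were Sncaip (0.998, within groups 0.979) and Cmbl (0.980, within groups 0.877), though 5 of its 11 replicate values were below background. For Junb they were Gnai3 (0.989, within groups 0.696) and Arl1 (0.984, within groups 0.706). For Fos they were Dpp7 (0.983, within groups 0.888) and Uap1l1 (0.971, within groups 0.716). Pltp (0.975, within groups 0.975) and Trio (0.966, within groups 0.940) ran most like Atf3, and Cacna1s (0.964, within groups 0.784) and Myl1 (0.959, within groups 0.675) most like Egr1. The genes for Jun were Lamp1 (0.953, within groups 0.955) and Tmem185b (0.924, within groups 0.984). The genes for Fosb were Pakap (0.937, within groups 0.859) and Sox4 (0.936, within groups 0.877), and those for Egr2 Fbxl17 (0.925, within groups 0.739) and Csnk2b (0.895, within groups 0.818). The replicates share 4 groups and their arrays, so the values over all replicates follow group means as well as single samples. Among the factors themselves, Egr1 and Fos ran most alike (0.747) and Junb and Npas4 most oppositely (-0.808).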

How the data were processed

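RNA of 11 macrophage replicates in 4 groups was measured on 14 Agilent one-colour arrays from 200 ng of RNA, labelled with Cy3. The submitters' processing notes name Feature Extraction 10.7.3.1 for reading the scans. The deposited intensity of each spot is background-subtracted and spatially detrended, per the file headers. The deposited log2 values of the series matrix, which were checked to be quantile normalized, served as an alternative. The authors' own filter on probes is not given here.

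Each array's log2 intensity had its 75th percentile (83.0 to 142 in signal) subtracted. Uneven spots (166 to 270 an array) were left out, as were 47 probes. Symbols came from RefSeq accessions, for 28311 of 55634 probes. Probes well above background on all arrays of 1 group were kept (20199), the brightest for each gene; probes without a symbol were grouped by accession. limma 3.58.1 (R 4.3.3) fitted the 4 groups plus slide. Repeat arrays of a replicate shared a random effect (correlation 0.0615), leaving 9 residual and 2.65 prior degrees of freedom. At this correlation repeat arrays count almost as separate replicates, so SEs and adjusted p-values may be too small. With no slide term, averaging repeat arrays took calls between genotypes in control medium from 1165 to 765 and interaction calls from 343 to 176. Calls of every other comparison also fell. Adjustment was by Benjamini-Hochberg at 0.05, and the fit was tested on simulated data.

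The 10 genes and all lists were chosen with earlier results of these data known. The genes named are the 10 factors, up to 6 passing genes of each list with the largest differences, a few fixed regulators and the 2 most similar genes of each factor; not all are described, and Arnt was added after its values were seen. Alternatives covered scaling, background, filters, slide, slide column, repeat arrays, the replicate number as a block and each replicate left out. The replicate numbers showed no clear pairing of samples. Deviations of same-numbered replicates correlated at -0.216 to 0.203 over 15 pairs and those of different numbers at -0.231 to 0.225 over 30. These deviations are from means of very few replicates, so they cannot exclude pairing.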

Additional observations from a re-analysis of the deposited data

Results flagged for a closer look

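For Egr2, 1 of the 10 factors, the fitted difference between the genotypes' responses to tumour material was 2.07 (SE 0.47) on the log2 scale: it was lower with tumour material in wild-type cells by -1.30 and not in transgenic cells (0.77). This difference passed the threshold in 2 of 11 fits that left out a replicate (1.83 to 2.27). It did not pass under quantile normalization, the deposited matrix, normexp, no slide term or the replicate block. It is given as a description, since the gene was chosen with these values known.

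2 genes of the lists were past the threshold by the interaction term of the limma fit. Dusp5, an ERK phosphatase of the immediate early class, had an interaction of -2.26 (SE 0.42, adjusted p = 0.0167). This value rests on signals not well above background on all 7 control arrays and 2 of 3 transgenic tumour arrays, and was -0.25 (adjusted p = 0.62) with normexp. As bounds, Dusp5 was at least 2.55-fold higher with tumour material in wild-type cells and at least 1.31-fold in transgenic cells (adjusted p of the fit 2.32e-06 and 0.0823). Its call was lost without wild-type tumour replicate 3 (-2.23, adjusted p = 0.18) and without transgenic tumour replicate 3 (-2.56, adjusted p = 0.088). Spp1, the gene of osteopontin and a known AP-1 target, had an interaction of 1.47 (SE 0.30, adjusted p = 0.0321). It fell by 0.91 (SE 0.18) in wild-type cells and differed by 0.56 (SE 0.24, adjusted p = 0.115) in transgenic cells. Its call was lost in 8 of 11 fits that left out a replicate, with adjusted p-values of 0.059 to 0.32.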

How the results depend on the processing

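The counts below are of the 8 measured factors past the threshold. In wild-type cells the 4 calls between media became 1 within slide 2 and 4 to 5 when a replicate was left out. In transgenic cells the 2 calls became 1 with no filter on dim probes, with probes above background on every array and within slide 2, 4 with no slide term and without slide column 4, and 1 to 6 when a replicate was left out. Between genotypes in control medium the 2 calls became 0 within slide 2, 5 without slide column 4 and 2 to 5 when a replicate was left out. With tumour material the 2 became 0 within slide 2 and with repeat arrays left out, 1 with slide column 4 as a term, and 0 to 4 when a replicate was left out. The 1 interaction call became 0 under quantile normalization, normexp on median signals, the deposited matrix, no filter, no slide term, slide 2 alone, slide column 4 as a term, repeat arrays averaged or left out, and the replicate block, and 0 to 3 when a replicate was left out. The replicate block moved no other count of factors by over 1.5 times. The cause of these moves was not tested, other than that slide 2 and fits without repeat arrays hold fewer arrays. Slide 2 holds only replicate 3 of both wild-type groups and of transgenic control. Without slide column 4, transgenic control is replicate 3 alone, so calls in these fits are no separate check. Normexp, which used median signals because the files hold no mean signals, was chosen after seeing the files. It adds an offset of 50 and gave Npas4 differences of -1.27 and -2.99, and Egr2 -0.79 in wild-type cells. It turned Dusp5 between genotypes in control medium from 1.08 to -0.12, both from signals below background. Over all settings other than leaving out a replicate, recomputed differences of list genes stayed on their side of the threshold 1452 times, lost the call 153 times and gained it 24 times.

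Among all genes, calls between genotypes with tumour material numbered 717, and 131 to 2087 when a replicate was left out; in control medium they numbered 1416, and 419 to 2717. Interaction calls numbered 306, and 45 to 1207. Without the filter, medians over all genes moved from 0.06 to 0.26 for tumour material in transgenic cells and from 0.02 to 0.14 for the interaction. The Npas4 bound without a replicate and the separations counted over measured genes were added after seeing the data. The 2 transgenic tumour replicates and the dim signals of Fosl1, Egr3 and Npas4 set the limits of these data.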
